A study of Mus musculus with 6 samples.

Results

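Transcripts of fibroblasts and mesothelial cells were followed through 6 mouse RNA sequencing libraries whose labels name neither cell type, only microglia and peritoneal macrophages. The 9 genes were 3 fibrillar collagen chains (Col1a1, Col1a2 and Col3a1), 3 small matrix proteins (Dcn, Lum and Dpt) and 3 mesothelial genes (Msln, Upk3b and Wt1). They were chosen by symbol, for levels that had been seen to be uneven across these same libraries, so their levels and their differences between groups are given as descriptions, with no test. Of the 9 symbols, 7 have a row among the 21399 genes of the tables, and 3 of those 7 (Col1a1, Col1a2 and Col3a1) had a mean of at least 1 FPKM, the fragments counted per kilobase of transcript after scaling to the size of the library. Dpt and Wt1 have no row and are not analysed here.

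The series compares 3 libraries labelled WT with 3 labelled KO. Primary microglia of WT or KO mice carrying the CD45.2 form of the leukocyte protein CD45 had been deprived of oxygen and glucose and then reoxygenated together with peritoneal macrophages of CD45.1 mice, per the series' design text. All 6 libraries share the deprivation, the reoxygenation and the CD45.1 macrophages. The design text says that CD45.1+ microglia were sorted, although it gives that form to the macrophages, and every sample is labelled as both cell types. The deleted gene is not named in the labels, the series title names PPARα, and the ages of the mice, the length of the co-culture and the origin of the replicates are not given, so the spread between replicates may be technical. Peritoneal macrophages are washed from a cavity lined by mesothelium, and primary microglia are usually grown from brain tissue that carries meninges, which hold fibroblasts.

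Fibroblasts build the extracellular matrix. Type I collagen is a triple helix of the chains encoded by Col1a1 and Col1a2, type III collagen is a helix of the chain encoded by Col3a1, and both assemble into fibrils. Decorin (Dcn) and lumican (Lum) are small leucine-rich proteoglycans that bind collagen fibrils and limit their width. Mesothelin (Msln), a surface protein, and uroplakin 3b (Upk3b), a membrane protein, mark the mesothelial sheet that lines body cavities.

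The libraries held between 34543159 and 38093111 reads recovered from the FPKM values, so that single reads of a trace transcript could be counted. B cell genes were abundant in every library, with a summed level of 4124 to 5378 FPKM over 8 genes, while the microglial genes Tmem119 and P2ry12 reached at most 2.43 and 1.09 FPKM. The 15 peritoneal macrophage genes summed to 1523 to 4512 FPKM in WT and to 6436 to 12720 FPKM in KO. WT replicate 2 stood apart from the other WT libraries. Without it, limma, a linear model fitted to every gene, called 514 genes higher and 38 lower in KO, against 3 higher and 0 lower with all 6 libraries.

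One regulatory sequence is shown for the 3 collagen genes, whose levels moved together between libraries. Of the 9 genes, 4 have a window in the RefSeq promoter table (GRCm38.p6, the assembly also named mm10). The window of Col1a2 overlaps an untranslated exon in GENCODE M21 and is not printed. The 250 bases before the RefSeq start of Col3a1, at chr1:45311288-45311537 on the plus strand, read as follows, with a TATAAA word in capitals.
Col3a1: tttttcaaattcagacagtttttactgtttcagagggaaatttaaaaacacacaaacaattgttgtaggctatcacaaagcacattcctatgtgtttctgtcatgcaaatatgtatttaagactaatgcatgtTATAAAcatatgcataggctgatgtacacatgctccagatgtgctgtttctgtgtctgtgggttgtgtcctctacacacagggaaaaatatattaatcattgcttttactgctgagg
The word begins 117 bases before the start. The same word on the sense strand occurs in the matching 250 bases of 7.6% of the 32851 windows of the table. CCAAT or its reverse complement ATTGG was not in these letters and occurs in 33.8% of the windows. Bases G and C make up 35.2% of the printed sequence, against a median of 52.4% over all windows.

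Col1a1, the alpha 1 chain of type I collagen, had the highest level of the 7 genes, and its highest library stood 20.4 times above the lowest within WT and 12.1 times within KO. The gene occupies positions 94936224 to 94953042 of chromosome 11 (plus strand, mm10 with GENCODE M21 annotation, as for all positions below) and overlaps no other annotated gene. The WT libraries held 1.09, 6.92 and 0.339 FPKM (234, 1518 and 70 reads) in replicates 1 to 3. The KO libraries held 1.17, 5.13 and 14.2 FPKM (267, 1140 and 3002 reads). KO replicate 3, WT replicate 2 and KO replicate 2 were high, the other 3 libraries were low, and both groups contained high and low libraries.

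Col1a2, the partner chain of type I collagen, followed the same order of libraries. It occupies positions 4504814 to 4541544 of chromosome 6 (plus strand) and overlaps an unconfirmed transcript of the same strand. Its values were 0.691, 7.12 and 0.308 FPKM in WT (131, 1375 and 56 reads) and 1.12, 4.31 and 12.2 FPKM in KO (224, 844 and 2262 reads). The highest WT library was again above 2 of the 3 KO libraries, so the groups overlapped.

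Col3a1, the chain of type III collagen, spread more widely in WT. It occupies positions 45311538 to 45349706 of chromosome 1 (plus strand) and overlaps a predicted microRNA. Its values were 0.173, 5.70 and 0.124 FPKM in WT (35, 1173 and 24 reads) and 0.698, 2.00 and 6.82 FPKM in KO (149, 418 and 1349 reads). The highest library stood 46.0 times above the lowest within WT and 9.77 times within KO. The groups overlapped here too.

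Dcn, the gene of decorin, was nearly all in WT replicate 2 and KO replicate 3. It occupies positions 97479609 to 97518143 of chromosome 10 (plus strand) and overlaps no other annotated gene. WT replicates 1 to 3 held 0.0131, 1.77 and 0.0273 FPKM, which is 1, 138 and 2 reads. KO replicates 1 to 3 held 0.272, 0.165 and 1.68 FPKM, which is 22, 13 and 126 reads. KO replicate 2, high for all 3 collagens, was low for Dcn.

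**Figure D1:**
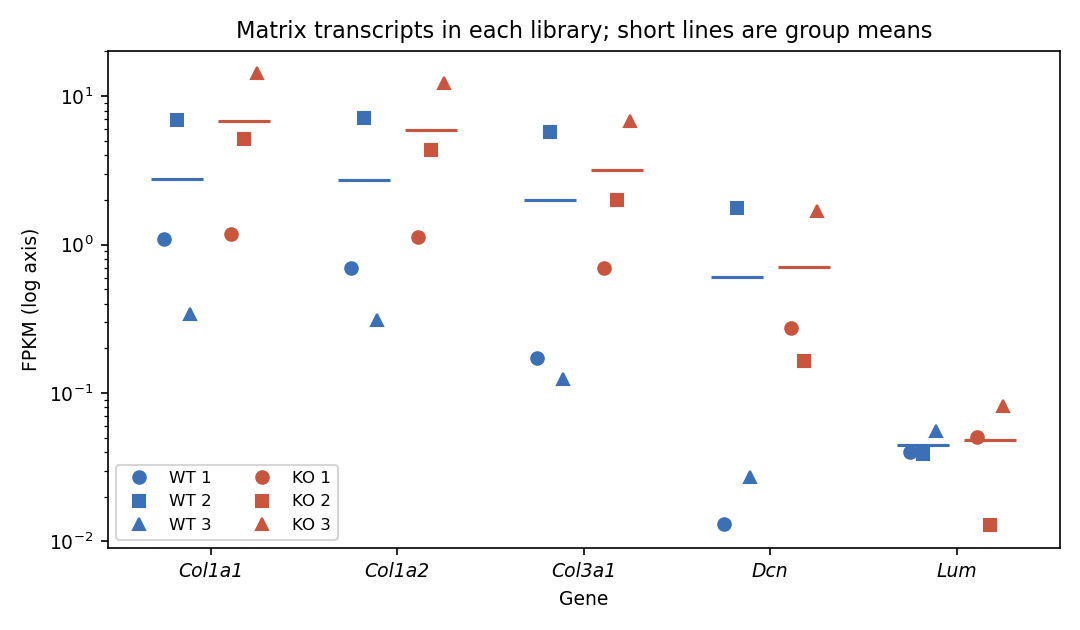
FPKM of Col1a1, Col1a2, Col3a1, Dcn and Lum (log axis) in each WT (blue) and KO (red) library, with the replicate shown by the symbol and the group mean by a short line. For the 3 collagen genes KO replicate 3 is highest, followed by WT replicate 2 and then KO replicate 2, whereas Lum stays between 0.0129 and 0.0813 FPKM.

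Lum, the gene of lumican, did not share this pattern. It lies near Dcn, at positions 97565128 to 97572703 of chromosome 10 (plus strand), and overlaps no other annotated gene. It held 3, 3 and 4 reads in WT (0.0398, 0.0391 and 0.0554 FPKM) and 4, 1 and 6 reads in KO (0.0502, 0.0129 and 0.0813 FPKM). At 21 reads over 6 libraries the depth was too low to rank the libraries. In WT replicate 2, with 138 Dcn reads, Lum had 3.

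The mesothelial genes were at or near 0. Msln, at positions 25748613 to 25754378 of chromosome 17 (minus strand), had 1 read in WT replicate 1 (0.0126 FPKM) and 0 in the other 5 libraries, where a count of 0 allows up to 3 reads, or 0.0359 to 0.0396 FPKM. Upk3b, at positions 136038496 to 136046487 of chromosome 5 (plus strand), had a value in WT replicate 2 alone (0.0531 FPKM, recovered as 1 read, although a value in a single library could also be a multiple of that). Neither overlaps another annotated gene. The mesothelial side of the label therefore rests on 1 value above 0 for each gene, in a single library, and the values below concern the collagens and Dcn.

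The 5 fibroblast genes with a row summed to 2.00, 21.5 and 0.854 FPKM in WT replicates 1 to 3 and to 3.31, 11.6 and 35.0 FPKM in KO replicates 1 to 3. By FPKM, Col1a1 exceeded 79.5% of all genes in KO replicate 3 and 43.2% in WT replicate 3. In bulk RNA fewer cells of a type and less RNA per cell cannot be told apart. On the log2(FPKM + 1) scale, the spread of Col1a2, Col1a1 and Col3a1 within groups ranked 10, 11 and 14 among the 10732 genes that averaged 1 FPKM or more. The top 4 ranks were held by Mcpt4, Cma1, Tpsb2 and Cpa3, genes of mast cell proteases. Unevenness is what the genes were chosen for, so these ranks describe the choice. Over the 6 libraries, which share depth and preparation, Pearson's r of log2(FPKM + 0.1) was 0.99 for Col1a1 with Col1a2, 0.96 for Col1a1 with Col3a1 and 0.84 for Col1a1 with Dcn.

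The mix of the matrix transcripts differed between libraries as well as their sum. As a share of the reads of Col1a1 and Col1a2 together, Col1a2 made up 35.9% in WT replicate 1 (95% exact binomial interval 31.0 to 41.0) and between 42.5% and 47.5% in the other 5 libraries. That interval overlapped those of WT replicate 3 (35.6 to 53.6) and KO replicate 2 (40.4 to 44.8). Col3a1 made up 13.0% of the reads of Col3a1 and Col1a1 in WT replicate 1 (interval 9.23 to 17.6) and 43.6% in WT replicate 2 (41.7 to 45.5). The other libraries lay between, with 25.5% in WT replicate 3, 35.8% in KO replicate 1, 26.8% in KO replicate 2 and 31.0% in KO replicate 3. WT replicate 1 thus held the least Col3a1 per Col1a1, although its interval overlapped that of WT replicate 3 (17.1 to 35.6).

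Dcn made up 8.33% of the reads of Dcn and Col1a1 in WT replicate 2 (interval 7.05 to 9.77) and 7.61% in KO replicate 1 (4.83 to 11.3). In WT replicates 1 and 3, with 1 and 2 Dcn reads, Dcn made up 0.426% (0.0108 to 2.35) and 2.78% (0.338 to 9.68). It made up 4.03% in KO replicate 3 (3.37 to 4.78) and 1.13% in KO replicate 2 (0.602 to 1.92). WT replicate 2 and KO replicate 2, with 6.92 and 5.13 FPKM of Col1a1, therefore differed in the Dcn share by more than counting error. These intervals cover counting error only, since reads are not independent molecules, and no interval describes a group.

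**Figure D2:**
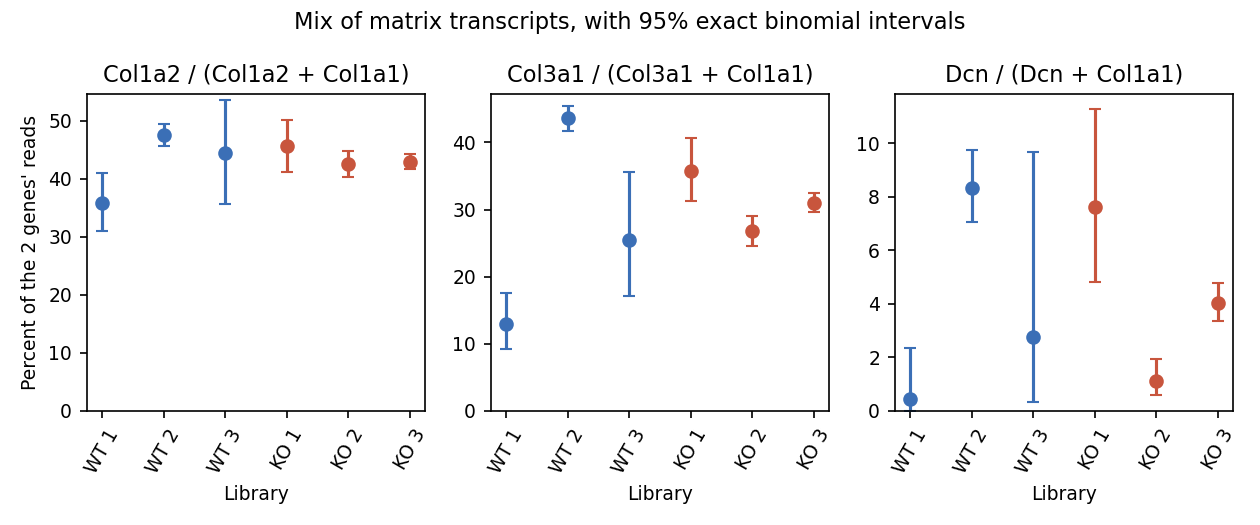
Share of Col1a2, Col3a1 or Dcn in the reads of that gene and Col1a1 together, in percent, for each library (blue WT, red KO), with 95% exact binomial intervals as bars. Col1a2 stays between 35.9% and 47.5%, whereas Col3a1 runs from 13.0% to 43.6% and Dcn is lowest in WT replicate 1 and KO replicate 2. The Dcn interval of WT replicate 3 (0.338 to 9.68) contains the Dcn values of both.

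The difference between the groups was smaller than the spread within them for each of the 4 genes that carry the signal. The mean level of Col1a1 was 2.78 ± 3.60 FPKM in WT, against 6.85 ± 6.70 FPKM in KO (SD, n = 3). The difference of the log2(FPKM + 1) means was 1.07, against a pooled within-group SD of 1.37. For Col1a2 the difference was 1.02 with an SD of 1.37, for Col3a1 0.73 with an SD of 1.30, and for Dcn 0.15 with an SD of 0.75. Of the 7 genes 0 had groups that did not overlap, where 9.75% of the 10732 genes were entirely higher in KO and 15.2% entirely lower. Of the 7, only Col1a1, Col1a2 and Col3a1 are among those 10732. Msln and Upk3b, at 0 in libraries of both groups, could not have separated.

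For the collagens and Dcn the overlap rested on 1 library. Without WT replicate 2 the lowest KO value lay above the highest remaining WT value for Col1a1, Col1a2, Col3a1 and Dcn. Of the 10723 genes fitted without that library, which do not include Dcn, 18.5% were entirely higher in KO. The difference was then 1.81 for Col1a1, 1.83 for Col1a2, 1.57 for Col3a1 and 0.64 for Dcn. The margin was small for Col1a1, at 1.09 FPKM in WT replicate 1 and 1.17 FPKM in KO replicate 1. Without KO replicate 3 the differences were 0.38, 0.36, 0.13 and -0.23. For Dcn the sign also turned without WT replicate 1 (-0.09) and without WT replicate 3 (-0.08).

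Other matrix genes were taken from lists arranged by role, and their test was limma on log2(FPKM + 1) with p-values adjusted over all 10732 genes tested, of which 0.028% were called higher in KO (3 genes) and 0% lower (0 genes). Without adjustment, 951 genes higher in KO and 881 lower had a p under 0.05, and the median difference over all genes tested was -0.06. The difference was positive for 3796 and negative for 6936 of the 10732. No member of the fibroblast, proteoglycan, collagen, processing, receptor or mesothelial lists was called, and none was called by limma's voom on the recovered reads or without the filter on low values.

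Of the 11 other small leucine-rich proteoglycans with a row, 2 were tested. Bgn, the gene of biglycan, the closest relative of decorin, followed the collagens rather than Dcn. It stood at 0.310, 5.09 and 0.358 FPKM in WT and at 0.974, 3.13 and 6.65 FPKM in KO, so KO replicate 2 was high and the groups overlapped (difference 0.84, SE 0.68, limma adjusted p = 0.56). Nyx, the gene of nyctalopin, was as abundant but even across libraries, at 2.03 to 3.87 FPKM (adjusted p = 0.30). Fmod, the gene of fibromodulin, differed from both, with 0.855, 1.11 and 0 FPKM in WT and 0, 0.0598 and 0.135 FPKM in KO, and was named after its values were seen. The median of the 2 tested differences was 0.26.

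Of the 39 other collagen chains, 6 were tested, 3 with positive and 3 with negative differences (median 0.08), and 1 of the 6 was at an unadjusted p under 0.05. Chains of type V collagen, which is built into type I fibrils, were again highest in KO replicate 3. Col5a1 stood at 0.575, 0.993 and 0.135 FPKM in WT and at 0.334, 0.884 and 2.37 FPKM in KO. Chains of type VI collagen, a beaded microfibril, were high in the same 2 libraries as Dcn: Col6a1 stood at 0.485, 2.00 and 0.0651 FPKM in WT and at 0.164, 0.819 and 2.29 FPKM in KO. These 2 genes and Col4a1, a basement membrane chain that reached 3.96 FPKM in KO replicate 3, were named after their values were seen.

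The tested chains with the smallest p showed other patterns. Col18a1, the source of endostatin, was higher in every KO library than in any WT library, at 1.11 ± 0.684 FPKM in WT, against 2.77 ± 0.334 FPKM in KO (SD, n = 3, difference 0.89, SE 0.24, limma adjusted p = 0.15). Col27a1, a fibrillar chain of cartilage, stood at 3.71 ± 0.986 and 2.77 ± 0.216 FPKM (adjusted p = 0.39). Col11a2, a chain of cartilage fibrils, stood at 3.03 ± 1.02 and 2.22 ± 0.0801 FPKM (adjusted p = 0.43), and every KO library was below every WT library. Of the 6 chains tested, 1 was thus entirely higher and 1 entirely lower in KO, as were 9.75% and 15.2% of all genes tested. Col18a1 and Col27a1 overlap other annotated genes. Of the 23 other chains with at least 60 reads, 9 were highest in KO replicate 3, 6 in WT replicate 3 and 5 in WT replicate 1. Of all 14112 such genes, 979, 3854 and 2830 were highest in these libraries. The heat map of matrix genes by library shows that collagen chains did not move as one.

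**Figure D3:**
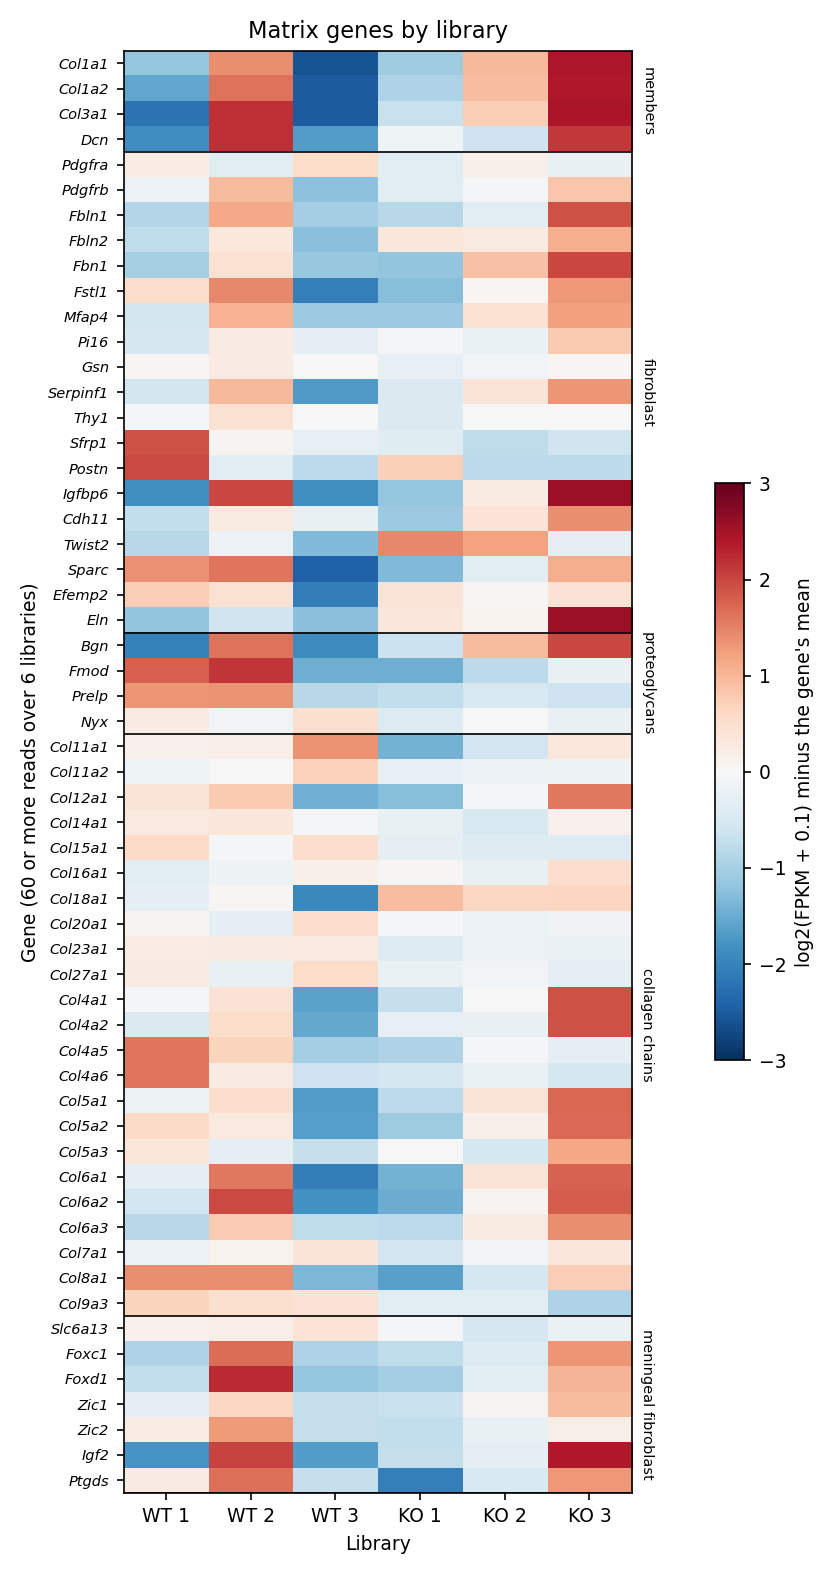
Difference of log2(FPKM + 0.1) from each gene's own mean (colour) in each library (columns) for 57 genes with at least 60 reads (rows): 4 of the 9 genes, then fibroblast, proteoglycan, collagen and meningeal lists, divided by lines. The 4 genes are high in WT replicate 2 and KO replicate 3, while Postn and Col4a6 are highest in WT replicate 1, at 0.630 and 0.374 FPKM.

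Genes that make, fold and cross-link collagen fell into different patterns. Of 27 such genes, 12 were tested, 11 with positive differences (median 0.58), 5 were at an unadjusted p under 0.05, and 0 were called. Of all 10732 genes tested, 3796 had positive differences. P4ha1 and P4hb, subunits of the prolyl hydroxylase that stabilises the helix, stood at 7.95 ± 2.04 and 12.6 ± 0.260 FPKM and at 114 ± 24.9 and 178 ± 31.6 FPKM for WT and KO (SD, n = 3, limma adjusted p = 0.13 and 0.16). Crtap, of the prolyl 3-hydroxylation complex, stood at 11.8 ± 5.85 and 24.8 ± 6.56 FPKM (adjusted p = 0.16). All 3 were entirely higher in KO, as were 6 of the 12, where 9.75% of all genes tested were. The highest of the list, Ppib, a prolyl isomerase of the same complex, stood at 242 ± 36.1 and 281 ± 52.5 FPKM. These enzymes also act outside collagen synthesis, and Crtap was highest in KO replicate 1, the library with the highest summed macrophage genes. The part of the macrophage genes in these values was not tested. Of the 27 genes, 21 had at least 60 reads, and 9 of them were highest in KO replicate 1, 6 in WT replicate 2 and 6 in KO replicate 3. Of all 14112 such genes, 2438, 3062 and 979 were highest in these libraries.

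Lox, the lysyl oxidase that cross-links fibrils outside the cell, was highest in the same 3 libraries as the collagens, with KO replicate 2 ahead of WT replicate 2. It stood at 0.253, 2.11 and 0.138 FPKM in WT and at 0.359, 2.58 and 7.52 FPKM in KO (difference 1.07, SE 0.66, limma adjusted p = 0.45). Serpinh1, the collagen chaperone, stood at 3.43, 4.29 and 0.409 FPKM in WT and at 1.27, 2.75 and 5.93 FPKM in KO. WT replicate 1, low in Col1a1, was thus high in Serpinh1. These 2 genes were named after their values were seen, and Lox overlaps an antisense gene.

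Receptors that bind or take up collagen were led by Itgb1, the integrin beta 1 chain, at 118 ± 19.2 FPKM in WT, against 169 ± 7.72 FPKM in KO (SD, n = 3, limma adjusted p = 0.13). Mrc1, the macrophage mannose receptor, stood at 1.02 ± 0.468 and 2.98 ± 0.952 FPKM (adjusted p = 0.12), and Lair1, an inhibitory collagen receptor of leukocytes, at 0.939 ± 0.173 and 1.45 ± 0.190 FPKM (adjusted p = 0.23). Of the 4 tested among 11, 3 had positive differences (median 0.43), 3 were at an unadjusted p under 0.05 and 0 were called. The 3 named genes are expressed by leukocytes and were entirely higher in KO, as were 9.75% of all genes tested. The remaining tested receptor was entirely lower in KO, as were 15.2% of all genes tested. The summed macrophage genes were also higher in every KO library than in any WT library, and their part was not tested.

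Other fibroblast genes were mixed in their differences between groups. Of 26 with a row, 5 were tested, 1 with a positive and 4 with negative differences (median -0.17), and 0 were called or at an unadjusted p under 0.05. Of all 10732 genes tested, 3796 had positive and 6936 negative differences. The sign of the list median rested on single libraries: leaving out KO replicate 1 gave 0.03, leaving out WT replicate 1 gave 0.02 and leaving out WT replicate 2 gave 0.13. Of 19 with at least 60 reads, 9 were highest in KO replicate 3, 5 in WT replicate 2 and 3 in WT replicate 1. Of all 14112 such genes, 979, 3062 and 2830 were highest in these libraries. Thy1 and Gsn, which lymphocytes and many other cells also express, were even, at 27.4 to 50.5 and 16.7 to 23.7 FPKM. Serpinf1, a secreted protein of fibroblasts, had the collagen order, at 1.33, 4.02 and 0.539 FPKM in WT and at 1.45, 2.61 and 5.08 FPKM in KO (adjusted p = 0.59). Pdgfra, the receptor by which fibroblasts are commonly recognised, reached at most 0.0874 FPKM and had 0 reads in WT replicate 2, a library rich in collagen reads. Pdgfrb, a receptor of pericytes and fibroblasts, had 24, 80 and 0 reads in WT and 21, 30 and 70 in KO. The label of fibroblast thus rests mainly on matrix genes, since Pdgfra and Lum stayed at trace. Pdgfrb was highest in the same libraries as the collagens but reached at most 0.354 FPKM. Pdgfra, Pdgfrb and the genes of the next paragraph were singled out after their values were seen.

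Sparc, a collagen-binding matrix protein, showed that WT replicate 1 was not poor in every matrix gene. It stood at 13.5, 15.9 and 0.871 FPKM in WT and at 1.99, 4.13 and 11.05 FPKM in KO. The ratio of Sparc to Col1a1 in FPKM was 12.4 in WT replicate 1 and between 0.776 and 2.57 in the other 5 libraries. Igfbp5, a growth factor binding protein, was high in WT replicates 1 and 2 (4.42 and 3.76 FPKM) and at most 0.995 FPKM elsewhere. Gfap, the astrocyte filament protein, had 2.69 FPKM in both of these libraries and at most 0.218 FPKM in the other 4. Acta2 and Tagln, contractile genes of smooth muscle and myofibroblasts, stood at 6.31 and 7.74 FPKM in WT replicate 1 and at 7.41 and 15.3 FPKM in KO replicate 3. The part of astrocytes or contractile cells in the collagen levels was not tested.

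Other mesothelial genes did not share 1 pattern. Krt7, Lrrn4, Bnc1, Pkhd1l1 and Nkain4 stayed at or below 0.0329 FPKM in every library. Krt19 had 2, 13 and 2 reads in WT and 1, 17 and 19 reads in KO, so its 3 highest libraries were those of the collagens. Others of the list were higher, with Aldh1a2 at 2.06 to 4.49 FPKM and Pdpn at 0.188 to 4.28 FPKM. Sulf1 was highest in KO replicate 3 and WT replicate 2, at 1.17 and 1.02 FPKM. All genes of this paragraph up to here were named after their values were seen. The 5 genes tested were led by Slpi, a protease inhibitor of macrophages and epithelia, at 509 ± 278 FPKM in WT, against 1387 ± 430 FPKM in KO (SD, n = 3, difference 1.56, limma adjusted p = 0.14). Igfbp5 (adjusted p = 0.41) and Krt8, at 3.38 ± 0.528 and 2.81 ± 0.496 FPKM (adjusted p = 0.49), were the next. Of the 5, 3 had positive differences (median 0.09), 1 was at an unadjusted p under 0.05 and 0 were called. Leaving out KO replicate 1 gave a median of -0.04, leaving out WT replicate 3 gave -0.12 and leaving out WT replicate 1 gave 0.32.

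Several meningeal fibroblast genes were highest in the libraries rich in collagen. Of 9 with a row, 1 was tested, Igf2 (difference 0.32), and 0 were called. Foxc1, a transcription factor of meningeal and other mesenchyme, had 1, 81 and 1 reads in WT and 3, 8 and 58 in KO. Foxd1, a transcription factor of stromal progenitors, reached 0.944 FPKM in WT replicate 2 and 0.354 FPKM in KO replicate 3 and at most 0.0759 FPKM elsewhere. Of the 7 list members with at least 60 reads, 4 were highest in WT replicate 2 and 2 in KO replicate 3, where 3062 and 979 of all 14112 such genes were highest. Slc47a1 and Slc6a20a, transporters on the same list, reached at most 0.0437 FPKM. Foxc1, Foxd1 and the 2 transporters were named after their values were seen.

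The genes whose levels were most like the fibroblast genes were ranked by Pearson's r with the mean standardised profile of Col1a1, Col1a2, Col3a1, Dcn and Lum over the 6 libraries, among 2979 genes with at least 60 reads and a range of at least 1 on log2(FPKM + 0.1). The first 6 were Igf2 (r = 0.986), Fbln1 (0.976), Igfbp6 (0.974), Zfp334 (0.968), Cx3cr1 (0.966) and H19 (0.962). Lum, with 21 reads, weighs as much in this profile as each of the other genes in it. Its own r with the profile was 0.37, against 0.92 to 0.96 for the others. These values describe 6 points that share library and depth, and no p is given. No such ranking was made for Msln and Upk3b, which each have a value above 0 in 1 library only.

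Igf2, a fetal growth factor, is imprinted together with its neighbour H19, a noncoding RNA. Igf2 stood at 0.106, 2.80 and 0.121 FPKM in WT and at 0.329, 0.487 and 3.65 FPKM in KO (limma adjusted p = 0.81), and H19 at 0.0963, 4.77 and 0.0251 FPKM in WT and at 0.911, 1.43 and 7.72 FPKM in KO. Both overlap other annotated genes. Fbln1, the matrix protein fibulin 1, had 5, 64 and 3 reads in WT and 6, 14 and 115 in KO. Igfbp6, a growth factor binding protein of fibroblasts, had 0, 64 and 0 reads in WT and 3, 16 and 92 in KO. WT replicate 2 and KO replicate 3 led all 4 genes, as they led Dcn. The genes were picked for likeness to a profile that holds Dcn and Lum, so this order follows in part from the choice.

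Cx3cr1, the fractalkine receptor of microglia and monocytes, varied over a smaller range, at 0.807, 1.79 and 0.689 FPKM in WT and 1.01, 1.55 and 3.46 FPKM in KO, and its annotated span overlaps other genes. Zfp334, a zinc finger gene, had 7, 20 and 0 reads in WT and 9, 13 and 31 in KO, at most 31 in a library.

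Macrophage and B cell genes did not share the order of the collagens. Of the 15 peritoneal macrophage genes, 14 were highest in KO replicate 1, where Col1a1 was 1.17 FPKM, and 0 in KO replicate 3. Of all 14112 genes with at least 60 reads, 2438 and 979 were highest in these libraries. Their summed level was 2373, 4512 and 1523 FPKM in WT and 12720, 7840 and 6436 FPKM in KO. Within each group the order of the libraries was that of the collagens in WT and its reverse in KO. Of the 14 tested, 13 had positive differences (median 1.73), and 1 was called: F5, coagulation factor V, at 5.21 ± 0.536 and 24.3 ± 3.85 FPKM (SD, n = 3, limma adjusted p = 0.0053). Lyz2, lysozyme, was the highest of the list, at 979 to 8717 FPKM. The 8 B cell genes, led by Cd79a of the B cell receptor, had negative differences (median -0.24), none was called and 3 were at an unadjusted p under 0.05, among them Blnk, a B cell adaptor (adjusted p = 0.19). Negative differences were also held by 6936 of all 10732 genes tested.

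**Figure D4:**
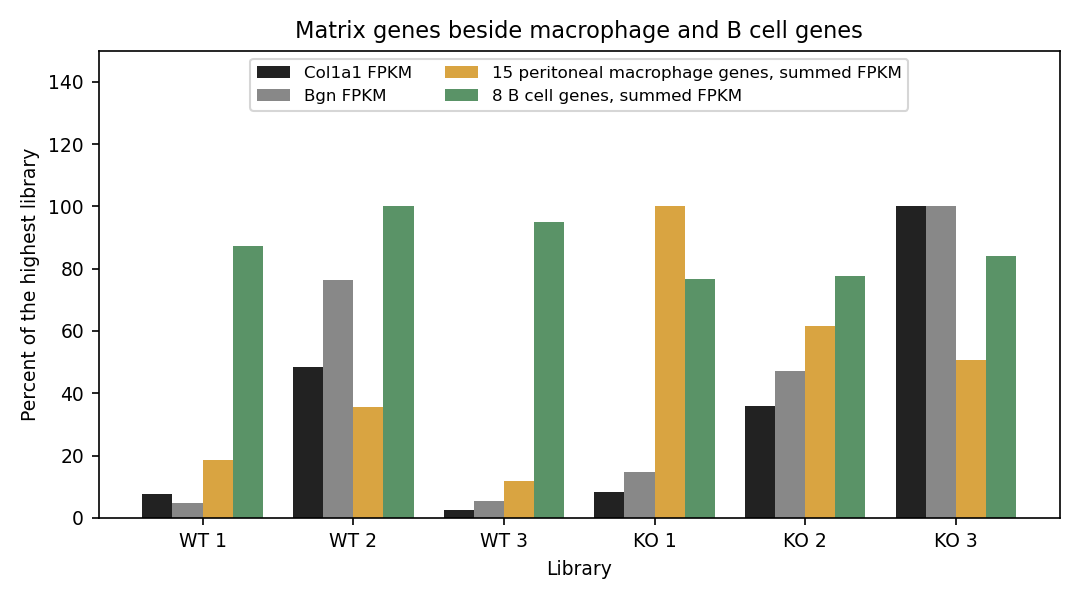
Col1a1 and Bgn in FPKM and the summed FPKM of 15 peritoneal macrophage and 8 B cell genes, each as a percent of its highest library (bars from 0). Col1a1 and Bgn peak in KO replicate 3 and the macrophage genes in KO replicate 1, while the B cell genes vary little.

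Further cell type lists had few genes tested. Smooth muscle and pericyte genes had 2 of 11 tested, both with positive differences (median 0.28). Acta2 stood at 0.730 to 7.41 FPKM (limma adjusted p = 0.82) and Tagln, the highest, at 1.72 to 15.3 FPKM. Of 6 with at least 60 reads, 3 were highest in KO replicate 3, where 979 of all 14112 such genes were. Of the endothelial genes, 1 was tested, Pecam1, which leukocytes also express, at 53.2 to 73.4 FPKM (adjusted p = 0.56), while the other 8 with a row were untested and reached at most 0.655 FPKM. That highest value was of Cdh5, an endothelial cadherin, which stood at 0.334, 0.502 and 0.199 FPKM in WT and at 0.239, 0.258 and 0.655 FPKM in KO, highest in the libraries with the most collagen. The part of endothelial cells in the collagen levels was not tested. Epcam, the 1 tested epithelial gene, stood at 4.45 ± 0.445 and 3.42 ± 0.424 FPKM (SD, n = 3, limma adjusted p = 0.24). Adipocyte genes reached at most 0.263 FPKM, for Retn. Among 4 tested neural genes, 1 had a positive difference (median -0.10), and Mbp, a myelin gene and the highest of the list, stood at 11.97 to 15.3 FPKM. All 3 tested microglial genes had positive differences (median 0.30), with Tmem119 at a limma adjusted p of 0.10.

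Genes listed for organs outside the culture were set beside the trace levels in these tables. Of 9 such genes with a row, Ttr reached 2.58 FPKM in WT replicate 2 and at most 0.0872 FPKM elsewhere. Ttr is made by liver but also by choroid plexus, a brain tissue, so it may not lie outside the culture. Gh, growth hormone, stood at 0.285 to 1.52 FPKM, and Pomc at 0.304 to 0.653 FPKM. Alb, Apoa1, Ckm, Acta1, Prm1 and Prm2 reached at most 0.138 FPKM. Col1a1 in WT replicate 3, at 0.339 FPKM, lay within the ranges of Gh and Pomc and above the genes from Alb to Prm2. Col1a1 in KO replicate 3, at 14.2 FPKM, lay above all 9. Apart from Gh, the genes of this list and Cdh5 were singled out after their values were seen.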

How the data were processed

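RNA sequencing was deposited by the authors as FPKM, 1 table per library, with 21399 gene symbols each. Per the labels' protocols, RNA came from a TRIzol extraction and library construction used the VAHTS Universal V6 kit. The submitters' processing notes name the build mm10; the sources used here name no aligner, counting tool or strand setting, so reads of overlapping genes cannot be told apart.

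FPKM values of a gene were whole multiples of 1 read, which gave back whole reads for all 21399 genes within 0.005 reads. A factor common to all libraries would not show, but the transcript length that 1 read implies was within 2 times of the longest GENCODE M21 transcript for 82.2% of 17772 genes matched. For Upk3b it was 513 bases, against 3530, and for Dcn 2119 bases, against 4692. Both genes lie outside that bound, so the comparison cannot tell whether their reads carry a common factor.

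Groups came from the sample titles. Genes averaging 1 FPKM or more were fitted on log2(FPKM + 1) with limma 3.58.1 (R 4.3.3, eBayes with trend) and Benjamini-Hochberg adjustment over all genes at 0.05. Read recovery and the fit were tested on simulated data. The genes and the 16 lists were chosen with earlier results of these data known. From each list the tested members with the smallest p (up to 3 for matrix and mesothelial lists, 1 for others), the highest gene and the 6 genes most like the fibroblast genes are named; exceptions are marked, and 2 genes that this rule gives are not reported here. Alternatives were other pseudocounts, filters and scaling, voom on recovered reads, a replicate block and leaving out each library. Python 3.11.15, pandas 2.3.3, numpy 2.4.6, scipy 1.17.1 and matplotlib 3.10.9 were used.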

Additional observations from a re-analysis of the deposited data

How the results depend on the processing

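Of 81 recomputed differences of the 7 genes, 78 moved by less than the SD within groups. These 78 include those with no filter and with the replicate block, settings that cannot change a difference of group means. The others were Dcn with voom on recovered reads (1.97), and Msln (-0.057) and Upk3b (-0.20) with 0.1 added to FPKM. That SD is wide, and differences moved by over 1.5 times within it. With voom they were 1.63 for Col1a1, 1.69 for Col1a2 and 2.01 for Col3a1. With 0.1 added they were 1.57, 1.61 and 1.68 for these genes and 0.90 for Dcn. With 5 added they were 0.55, 0.47, 0.24 and 0.03, since adding more shrinks low genes.

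The 3 genes called higher became 0 with no filter, 6 with 5 added, 5 with voom and 11 with the replicate block, and ranged from 0 to 514 when single libraries were left out. The 0 genes called lower ranged from 0 to 38. Without WT replicate 2, 6 collagen processing genes, 2 collagen receptors, 1 other collagen chain and 1 mesothelial gene were called; these counts were otherwise 0 with single libraries left out. The cause was not tested. Same-numbered libraries correlated at -0.21, -0.38 and 0.27 in their deviations from group means, and differently numbered ones at -0.36 to 0.47. Deviations within a group sum to 0, so these few values cannot tell whether the numbers pair the libraries. The replicate block could not change a difference of group means, since each number occurs once in both groups.

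List medians moved as follows. With voom, which admits lower genes, they were 0.59 for fibroblast genes, -1.29 for proteoglycans, -0.22 for collagen chains and -0.47 for mesothelial genes. With no filter, fibroblast genes were at 0.02, proteoglycans at -0.00633 and mesothelial genes at -0.00418. When single libraries were left out, fibroblast genes ranged from -0.35 to 0.13 and mesothelial genes from -0.12 to 0.32. Collagen chains were at -0.00461 with no filter and 0.16 with 0.1 added, and ranged from -0.20 to 0.54 when single libraries were left out. Collagen processing genes were at 0.0447 and collagen receptors at 0.05004 with no filter. Collagen receptors were at 0.55 with 0.1 added and 0.26 with 5 added. Mesothelial genes were at 1.56 with the filter at 5 FPKM. Depth limits Lum and Msln, with 21 and 1 reads over 6 libraries, and Upk3b, with a value above 0 in 1 library.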
